A study of Mus musculus with 8 samples.

Results

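A group of 10 genes encoding replication-independent histone variants was examined in gene counts from the cerebral cortex of 8 mouse embryos. The rule that names them uses gene symbols and no measured value, although earlier results of these data were known when it was set. They are, under current symbols or their older names: H3f3a and H3f3b (histone H3.3), H2az1 and H2az2 (H2A.Z), H2ax (H2A.X), Macroh2a1 and Macroh2a2 (macroH2A), the linker histone genes H1f0 and H1f10, and Cenpa (CENP-A). All 10 were found by gene ID among the 27179 genes of the count matrix, and all 10 passed the filter on low counts, which left 16074 genes. The embryos formed a Taf8-intact group of 4, genotype Taf8 +/+, and a Taf8-deleted group of 4, genotype Taf8 -/lox, which joins a null and a loxP-flanked allele. The protein made from Taf8 is part of TFIID, which binds core promoters and starts assembly of the transcription machinery there. The comparison asks how each variant mRNA stands when this subunit is lost. Neither embryonic age, strain nor the recombinase and its promoter is given in the sources used here. The intact embryos carry neither the null nor the loxP-flanked allele, and whether they carry the recombinase is not stated, so loss of Taf8 and any effect of these elements cannot be told apart.

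The 8 libraries, 1 per embryo, came from polyadenylated RNA read without strand, and held between 39590959 and 44788200 counts. Taf8 itself had 1222 to 1491 counts in the intact and 14 to 30 in the deleted libraries, so each library carried the Taf8 level of its label. Animal numbers in the labels share no number before the point between the groups, and what that number marks is not stated, so it and the genotype cannot be told apart. The p-values below measure the spread between embryos of these 2 groups. Neuronal markers were present at a high level in every library: the summed level of 8 markers was 6921 to 7599 CPM (counts scaled to library size with TMM factors) in intact and 5148 to 5613 CPM in deleted cortex.

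Most histone protein is made in S phase from clustered genes whose mRNAs end in a stem-loop. Variant genes largely work outside that program: most are transcribed in and out of S phase and in cells that no longer divide, their mRNAs are polyadenylated (H2ax is known to have a stem-loop form as well), and dedicated chaperones place their proteins at particular sites. H3.3 replaces H3 at active genes and at telomeres, H2A.Z marks nucleosomes beside transcription start sites, H2A.X is phosphorylated around DNA breaks, macroH2A carries a large extra domain and is tied to repression, linker histones bind the DNA that enters and leaves the nucleosome, and CENP-A defines the centromere. In the developing brain, neurons leave the cell cycle and come to rely on replacement histones such as H3.3.

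The 10 genes went in both directions in Taf8-deleted cortex. H3f3b, H2az1, H1f10 and H2ax were higher, H3f3a, H2az2, Macroh2a2, H1f0 and Cenpa were lower, and Macroh2a1 was not called. These 9 calls of 10 rest on edgeR's quasi-likelihood test with an adjusted p below 0.05, a threshold that 63.5% of the 16074 genes passed (30.6% higher, 32.9% lower), so a call is the usual outcome for a gene in this comparison, and nothing particular to the 10 genes is read from their count. The median log2 fold change, deleted minus intact, was -0.07 over the 10 genes and 1e-04 over all genes tested. The median absolute change was 0.37 over the 10 genes against 0.27 over all genes. The libraries of the groups did not overlap for 6 of the 10 genes, against 57.7% of all genes. In bulk tissue, fewer cells that express a gene and less RNA per cell cannot be told apart.

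**Figure D1:**
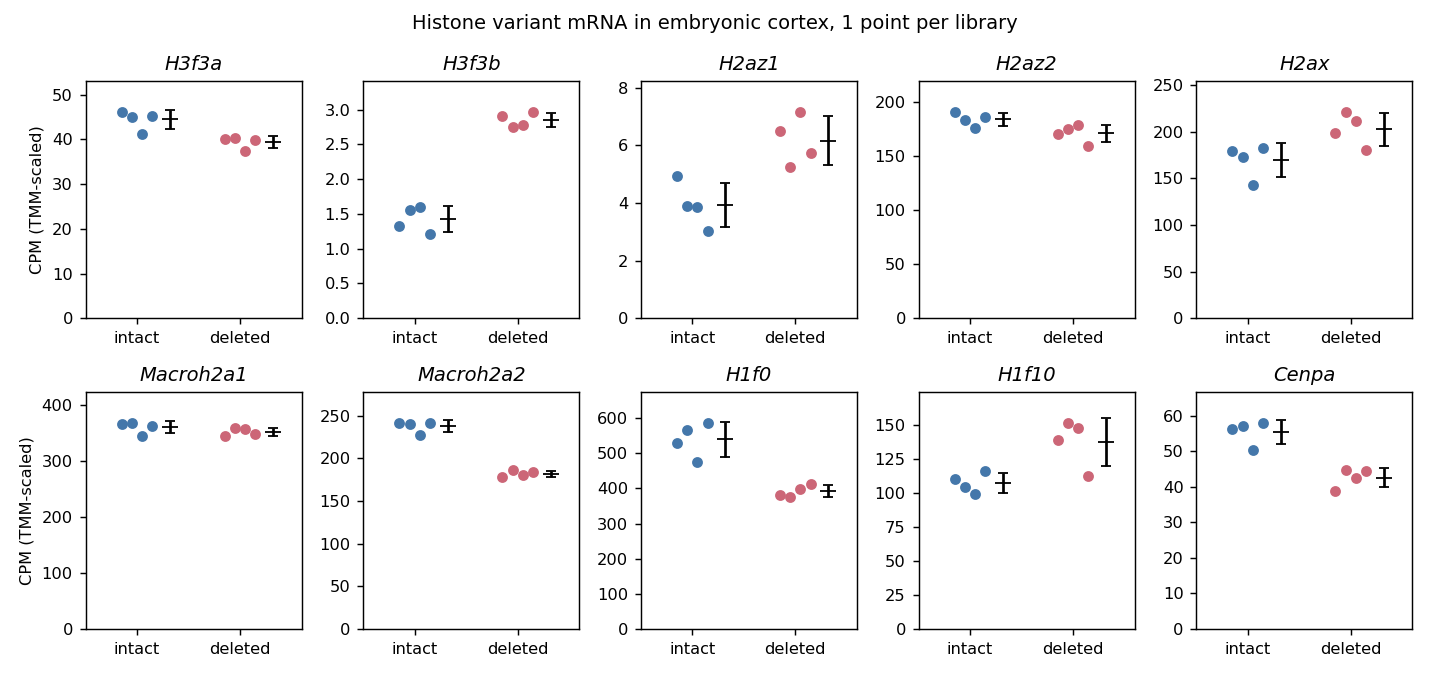
CPM of each histone variant gene in the 4 intact (blue) and 4 deleted (red) libraries, 1 point per library in replicate order, with the mean and SD beside each group in black; every axis starts at 0 and has its own scale. The groups are apart for H3f3a, H3f3b, H2az1, Macroh2a2, H1f0 and Cenpa and overlap for H2az2, H2ax, Macroh2a1 and H1f10.

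**Figure D2:**
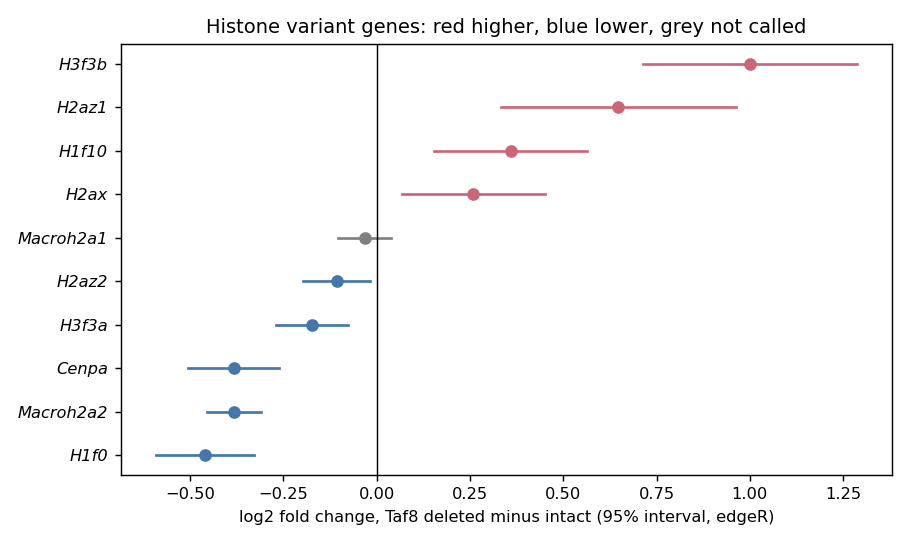
Log2 fold change of each variant gene, Taf8-deleted minus Taf8-intact, with its 95% interval from the edgeR fit. H3f3b stands farthest to the right at 1.00 and H1f0 farthest to the left at -0.46; the interval of Macroh2a1 spans 0.

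Levels were compared between genes per length of transcript, as RPKM (CPM per kilobase of the deposited gene length, mean ± SD, n = 4). In intact cortex H1f0 was the highest at 235 ± 21.4 RPKM, followed by Macroh2a1 at 176 ± 5.16. Macroh2a2 at 124 ± 3.68, H2ax at 124 ± 13.2, H2az2 at 112 ± 3.64 and H1f10 at 101 ± 6.94 RPKM came next, and each of these overlapped its neighbour in the order. Cenpa at 41.4 ± 2.61 and H3f3a at 41.3 ± 2.01 RPKM did not differ beyond their spread. H2az1 at 4.11 ± 0.809 and H3f3b at 0.714 ± 0.0944 RPKM stood last, apart from all others and from each other.

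The order was altered in deleted cortex. Macroh2a1 at 172 ± 3.6 and H1f0 at 171 ± 7.16 RPKM now overlapped at the top. H2ax at 149 ± 13.02 and H1f10 at 130 ± 16.7 RPKM followed and overlapped each other, and H1f10 overlapped H2az2 at 104 ± 5.01 RPKM. Macroh2a2, at 95.3 ± 1.85 RPKM, lay below every library of H2ax and H1f10, whereas it was above H1f10 in intact cortex. H3f3a at 36.7 ± 1.23 RPKM was above Cenpa at 31.8 ± 2.05, with no overlap, and H2az1 at 6.44 ± 0.876 and H3f3b at 1.43 ± 0.0533 RPKM remained the lowest.

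H3.3 is encoded by 2 genes with the same protein product and different mRNAs. The coding sequences of GENCODE transcripts on GRCm38 translate to proteins identical over 136 of 136 residues, while 95 of their 408 coding bases differ and the longest run that both share is 23 bases. The first 120 coding bases are shown because reads within the coding sequence can be assigned to H3f3a or H3f3b only through such differences. These are in capitals (24 of the 120).
H3f3a: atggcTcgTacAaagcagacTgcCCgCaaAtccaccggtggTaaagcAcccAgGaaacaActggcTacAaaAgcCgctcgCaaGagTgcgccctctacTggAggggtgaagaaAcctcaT
H3f3b: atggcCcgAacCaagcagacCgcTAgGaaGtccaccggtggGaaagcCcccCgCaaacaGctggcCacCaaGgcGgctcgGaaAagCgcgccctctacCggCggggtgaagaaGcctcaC

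H3f3a, gene ID 15078 at chr1:180802560-180813605 (GRCm38.p6), had 1985, 1914, 1697 and 1910 counts in intact replicates 1 to 4 and 1831, 1777, 1659 and 1599 in the deleted ones. In CPM these are 46.1, 45.1, 41.3 and 45.3 against 40.1, 40.3, 37.5 and 39.9, so every deleted library was below every intact one, although deleted replicate 2 and intact replicate 3 were close. H3f3a fell by 0.17 ± 0.04 (SE) on the log2 scale, a change of -11.3% (adjusted p = 0.00445), which is smaller than the median absolute change of all genes.

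H3f3b, gene ID 15081 at chr11:116021961-116026039, had 57, 66, 66 and 51 counts in the intact and 133, 121, 123 and 119 in the deleted libraries. This is 1.32, 1.56, 1.61 and 1.21 CPM against 2.91, 2.75, 2.78 and 2.97 CPM. The deleted libraries lay close together and far above the intact ones, and H3f3b had the largest change of the 10 genes: 1.00 ± 0.13 (SE) on the log2 scale, with a 95% interval of 0.71 to 1.29 (adjusted p = 3.22e-05). Its absolute change in log2 was larger than that of 91.1% of the genes tested.

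The count of H3f3b is low for a gene that is known to be broadly expressed, and the sharing of sequence was therefore measured for each gene. A window of 100 bases, the length of a single read of each pair here, was called shared where the same letters occur in an annotated transcript of another GENCODE gene. For H3f3a 34.8% of windows were shared, with 15 other genes of which 13 are pseudogenes. For H2az1 60.2% were shared, with 4 other genes of which 2 are processed pseudogenes. For H3f3b it was 2.7%, with the processed pseudogenes Gm37486 and Gm6485. H2az2 and Cenpa shared no window, the remaining genes 3.3% to 10.2%, and the median protein-coding gene 0.0%. The 2 genes with the lowest RPKM thus had the largest share (H2az1) and a small one (H3f3b). Copies outside annotated transcripts were not analysed here, how multi-mapping reads were counted is not given in the sources used here, and the part of read assignment in the low counts of H3f3b and H2az1 was not tested. The related gene H3f3c had 1 to 10 counts in every library.

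The promoters of the 2 H3.3 genes also differ, and are shown because TFIID contacts this stretch. The 100 bases before the start in the RefSeq promoter table are given 5′ to 3′ on the strand of the gene, at chr1:180813606-180813705 (minus strand) for H3f3a and chr11:116024505-116024604 (minus strand) for H3f3b in GRCm38.p6. For H3f3a this start is the outer end of the annotated gene, while for H3f3b it lies inside the annotated span, which reaches farther upstream to 116026039; other starts were not analysed here. Capitals mark matches on either strand to 3 short motifs. The first is the core of the TATA box, searched with the letters TATAAA. The second is the CCAAT box, searched by the letters of its name. The third is the GC box, searched with the letters GGGCGG, and the capitals that end the H3f3a stretch open such a box that runs across the start.
H3f3a: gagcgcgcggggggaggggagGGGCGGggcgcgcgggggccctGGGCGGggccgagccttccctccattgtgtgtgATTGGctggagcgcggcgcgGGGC
H3f3b: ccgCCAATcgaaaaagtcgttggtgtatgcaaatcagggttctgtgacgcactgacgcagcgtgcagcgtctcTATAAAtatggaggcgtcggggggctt
The H3f3b stretch holds TATAAA at bases -27 to -22 from the start. Of the 9 variant genes with a promoter in the RefSeq table (H2ax is not among them), H3f3b is the single member with these letters in its 300-base window, which runs from 250 before to 50 after the start. Of all 32851 promoters in that table, 13.6% hold TATAAA on either strand in the same window, and 2.1% hold it on the sense strand between -40 and -11. The H3f3b window also holds 4 CCAAT matches and no GC box, while that of H3f3a holds 1 CCAAT match and 6 GC boxes, of which some overlap. Of all promoters, 37.4% hold CCAAT and 35.7% GGGCGG. These matches describe letters and not binding.

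The H2A.Z genes also differed widely in counts and moved apart. The part of read assignment in the low counts of H2az1 was not tested. H2az1, gene ID 51788 at chr3:137864487-137866922, had 212, 166, 159 and 128 counts in the intact and 297, 232, 317 and 230 in the deleted libraries. These are 4.93, 3.91, 3.87 and 3.04 CPM against 6.51, 5.26, 7.16 and 5.74 CPM. The groups did not overlap, although intact replicate 1 came near deleted replicate 2. H2az1 rose by 0.65 ± 0.14 (SE) on the log2 scale, from 3.94 ± 0.774 to 6.17 ± 0.838 CPM (SD, n = 4 each; adjusted p = 0.00184). H2az2, gene ID 77605 at chr11:6427226-6444511, was at 190, 183, 176 and 185 CPM in the intact and 170, 175, 178 and 159 CPM in the deleted libraries. Deleted replicate 3 was above intact replicate 3, so the groups overlapped. The call of H2az2, at -0.11 ± 0.04 (SE; adjusted p = 0.0355), was lost under several other settings and without any of 6 of the 8 libraries, listed with the other alternatives at the end. The coding sequences of this pair translate to 125 identical residues of 128, share 304 of 384 bases, and have no identical run longer than 14 bases.

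H2ax, which encodes the variant phosphorylated next to double-strand breaks, is a gene of 1363 bases (gene ID 15270, chr9:44334715-44336077) whose deposited length equals its span, so that it has no intron. It was at 179, 173, 143 and 183 CPM in the intact and 198, 221, 211 and 180 CPM in the deleted libraries. Deleted replicate 4 was below intact replicate 4, and intact replicate 3 was the lowest of all 8. The rise of 0.26 ± 0.09 (SE; adjusted p = 0.0236) had a 95% interval of 0.07 to 0.45. It was no longer called without deleted replicate 2 (adjusted p = 0.0532) or deleted replicate 3 (adjusted p = 0.0547), and was 0.16 (adjusted p = 0.205) without both, the libraries with the highest summed meningeal markers at 116 and 146 CPM against 15.9 to 60.9 CPM in the others. Of the 100-base windows of H2ax 4.7% occur in other transcripts, among them replication-dependent H2A genes, which rose; the part of such sharing in the rise was not tested.

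The 2 macroH2A genes were each abundant, and only Macroh2a2 was called. Macroh2a1, gene ID 26914 at chr13:56073622-56135626, was at 366, 369, 345 and 362 CPM in the intact and 344, 359, 358 and 348 CPM in the deleted libraries. These ranges overlapped almost wholly. Its change was -0.03 ± 0.03 (SE; adjusted p = 0.403), with a 95% interval of -0.10 to 0.04, and its sign turned under 2 other scalings. Macroh2a2, gene ID 404634 at chr10:61738640-61784604, was at 241, 240, 227 and 242 CPM in the intact and 178, 186, 181 and 184 CPM in the deleted libraries. Within each group the libraries lay close together, and the highest deleted library was well below the lowest intact one. Macroh2a2 fell by 0.38 ± 0.03 (SE) on the log2 scale, a change of -23.3%, with the smallest adjusted p of the 10 genes (8.80e-07).

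Both macroH2A genes overlap further annotated genes, and without strand the reads of the overlapping stretches are uncertain. Macroh2a1 overlaps the gene model Gm31485. Macroh2a2 overlaps Aifm2, Mir5108 and Gm2137, and 6.6% of its 100-base windows are also in a transcript of Aifm2. Aifm2 averaged 3.28 CPM in the intact and 2.23 CPM in the deleted libraries, far below Macroh2a2 in either group. The pseudogene Macroh2a3 had 361 to 419 counts in the intact and 304 to 350 in the deleted libraries and fell by 0.30 ± 0.08 (SE; adjusted p = 0.00433). Macroh2a1 is known to be spliced into alternative forms, which gene counts do not separate. The proteins of the pair are less alike than those of the H3.3 and H2A.Z pairs, with 66.9% identical residues over 372.

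The linker histone genes changed in opposite directions. H1f0, gene ID 14958 at chr15:79028212-79030504, encodes H1.0, a linker histone known to accumulate as cells differentiate. It was at 529, 566, 475 and 587 CPM in the intact and 382, 376, 399 and 412 CPM in the deleted libraries. All 4 deleted libraries were below the lowest intact one, replicate 3. H1f0 fell by 0.46 ± 0.06 (SE) on the log2 scale, from 540 ± 49.0 to 392 ± 16.4 CPM (SD, n = 4 each; adjusted p = 4.36e-05), the largest fall of the 10 genes. H1f10, gene ID 243529 at chr6:87980421-87981482, encodes the divergent linker histone H1.10. It was at 110, 105, 98.9 and 116 CPM in the intact and 139, 152, 148 and 112 CPM in the deleted libraries. Deleted replicate 4 fell within the intact range, while the other 3 were above it. The rise of H1f10 was 0.36 ± 0.09 (SE; adjusted p = 0.00688). It was 0.22 (adjusted p = 0.0662) without deleted replicates 2 and 3, the libraries named above for their meningeal markers.

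Neither linker gene has an intron, since the deposited lengths of 2293 and 1062 bases equal their spans. Of the 3 intronless genes, H2ax and H1f10 were called higher and H1f0 lower. The part of gene structure in these changes was not tested. GENCODE transcripts on the opposite strand, Gm49544 at H1f0 and Gm5577 at H1f10, hold 3.3% and 10.2% of their 100-base windows. The promoters of this pair differ less in the motifs searched than those of the H3.3 genes. They are shown because the pair has the widest split among the abundant members, at chr15:79028112-79028211 (plus strand) for H1f0 and chr6:87981483-87981582 (minus strand) for H1f10, with GC boxes in capitals.
H1f0: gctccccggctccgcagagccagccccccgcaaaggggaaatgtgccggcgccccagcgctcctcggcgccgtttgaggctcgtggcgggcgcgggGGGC
H1f10: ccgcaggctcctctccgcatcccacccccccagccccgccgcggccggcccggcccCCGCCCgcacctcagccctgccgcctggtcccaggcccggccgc
Each 300-base window holds 1 GC box, no CCAAT and no TATAAA, and G and C make up 78.0% and 85.0% of the 100 bases shown.

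Cenpa, gene ID 12615 at chr5:30666877-30674837, encodes the H3 variant of centromeric nucleosomes. It was at 56.3, 57.0, 50.3 and 58.0 CPM in the intact and 38.7, 44.6, 42.5 and 44.3 CPM in the deleted libraries. The groups did not overlap, with intact replicate 3 the lowest of its group and deleted replicate 1 the lowest of all. Cenpa fell by 0.38 ± 0.06 (SE) on the log2 scale, a change of -23.3% (adjusted p = 7.54e-05). Cenpa shared no 100-base window with another gene.

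Ratios within a library, which do not depend on its scaling, were then used to test whether the genes of a pair moved differently. The log2 count ratio of H3f3b to H3f3a went from -4.97 ± 0.25 to -3.79 ± 0.06 (SD, n = 4 each), a difference of 1.18 ± 0.13 (SE). In plain ratios, H3f3b had 0.0267 to 0.0389 counts for each count of H3f3a in the intact and 0.0681 to 0.0744 in the deleted libraries. For H2az1 to H2az2 the difference was 0.77 ± 0.16, and the ratios were 0.0164 to 0.0259 against 0.0301 to 0.0402. The gene with fewer counts in each of these pairs thus took a larger share of the pair's counts in every deleted library. The part of read assignment in these ratios was not tested.

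Macroh2a1 had 1.499 to 1.536 counts for each count of Macroh2a2 in the intact and 1.893 to 1.983 in the deleted libraries. Their log2 difference of 0.35 ± 0.02 (SE) was the smallest of the 4 pairs and the most even between libraries. H1f10 had 0.185 to 0.208 counts for each count of H1f0 in the intact and 0.273 to 0.404 in the deleted libraries, a log2 difference of 0.81 ± 0.13 (SE). Deleted replicate 4 had the lowest of these deleted ratios and was still above every intact one. In each of the 4 pairs the groups did not overlap, and the two-sided exact permutation test over the 8 libraries gave p = 0.0286. This is the smallest value that 70 splits allow, and it stayed at 0.0286 after adjustment over the 4 pairs. Of all single genes tested, 57.7% did not overlap between the groups, and the share over other gene pairs was not computed. Nothing particular to these pairs is therefore read from their number. Without intact replicate 2 or intact replicate 4 the difference of the H1f10 and H1f0 pair was 0.77 and 0.80 with an exact permutation p = 0.0571 in each case.

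**Figure D3:**
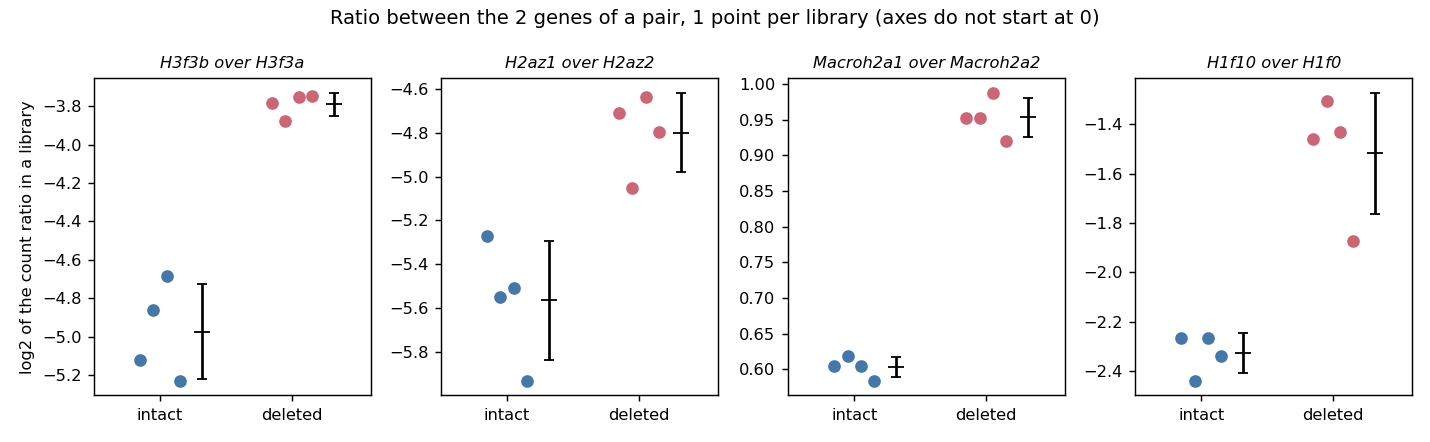
Log2 of the count ratio between the genes of each pair, 1 point per library (intact blue, deleted red), with the mean and SD in black; the axes do not start at 0. Each ratio has the gene with the higher log2 fold change on top, so the shared upward direction follows from that choice. In all 4 pairs the groups do not overlap. The mean difference is 0.35 for the macroH2A pair and 1.18 for the H3.3 pair.

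The genes of a variant were also summed. The H3.3 genes, with most counts from H3f3a, summed to 45.9 ± 2.03 CPM without and 42.3 ± 1.36 CPM with the deletion (SD, n = 4 each), a ratio of 0.922. The H2A.Z genes, with most counts from H2az2, summed to 188 ± 6.32 against 177 ± 8.57 CPM, a ratio of 0.942. MacroH2A mRNA was 598 ± 17.4 against 535 ± 9.83 CPM, a ratio of 0.894. All 10 genes together held 1703 ± 96.9 CPM in the intact and 1529 ± 40.2 CPM in the deleted libraries. These sums carry no test, and the part of read assignment in those of H3.3 and H2A.Z was not tested.

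Against them, mRNAs of 61 replication-dependent histone genes summed to 48.8 ± 7.47 CPM in the intact and 240 ± 10.4 CPM in the deleted libraries, 4.91 times as much. Of these 61 genes, 44 passed the filter, and 41 were called higher and none lower, where 30.6% and 32.9% of all genes tested were. A gene of this class could pass through its level in deleted cortex alone, so that count depends on the filter: it was 18 where a CPM above 1 in 4 libraries was asked for and 48 with no filter. Taking both classes together, replication-dependent genes held 2.48% to 3.24% of the histone counts in intact and 13.2% to 13.9% in deleted libraries. The variant genes thus held at least 96.8% of these histone counts in each intact library and at most 86.8% in each deleted library. Neither class includes the further histone genes described below, among them H2aw, H2bu2 and H2aj. H2aw alone had a higher mean (intact 97.1 CPM, deleted 276 CPM) than the 61 genes summed. The mean of H2bu2 (intact 72.5 CPM, deleted 109 CPM) was above that sum in the intact group only. That of H2aj (intact 31.3 CPM, deleted 41.6 CPM) was below the sum in both groups. The shares therefore hold for the 61 and 10 genes alone, and shares with H2aw, H2bu2 and H2aj were not computed. The libraries were made from polyadenylated RNA, so mRNAs that end in a stem-loop are counted only as far as that selection kept them.

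**Figure D4:**
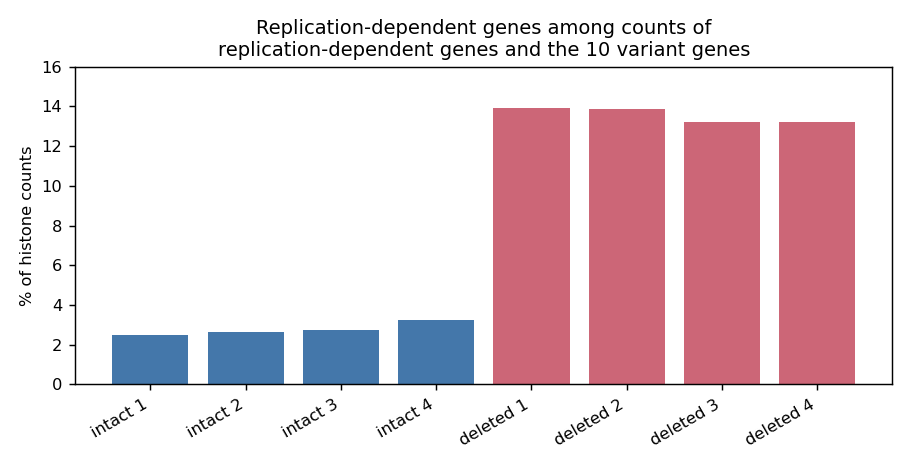
Share of histone counts, over 61 replication-dependent genes and the 10 variant genes, that came from replication-dependent genes in each library, in percent (intact blue, deleted red). The 4 intact libraries lie between 2.48% and 3.24% and the 4 deleted ones between 13.2% and 13.9%. Further histone genes, among them H2aw, H2bu2 and H2aj, are in neither class and are not counted.

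A short list of other histone genes, outside the 10 and not counted among the replication-dependent genes, had 13 genes in the matrix. Of these, 5 passed the filter, and all 5 were higher, where 30.6% of all genes tested were. A gene of this list, too, could pass through its level in deleted cortex alone. H2aw, an H2A gene, rose from 97.1 ± 7.11 to 276 ± 20.9 CPM (SD, n = 4 each), or 1.51 ± 0.06 (SE) on the log2 scale. It overlaps the annotated gene Trim17, so its reads are uncertain without strand. H2bu2, an H2B gene, rose from 72.5 to 109 CPM and H2aj, encoding H2A.J, by 0.41 on the log2 scale. The other 2 of the 5 were H4f16, an H4 gene that rose by 3.16 on the log2 scale, and a transcribed pseudogene. The list is thus not one of variants alone, and its shared direction is not set against that of the 10 genes.

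Genes whose proteins place or remove the variants changed in both directions too. Of all genes tested, 30.6% were called higher and 32.9% lower, so calls in both directions are usual for a list here. Of 7 genes of H3.3 chaperones, 2 were higher and 2 lower, with a median log2 fold change of -0.05. Cabin1 and Ubn1, subunits of the HIRA complex that deposits H3.3 at active genes, rose by 0.41 ± 0.04 and 0.27 ± 0.03 (SE). Hira itself was at -0.05 ± 0.03 (adjusted p = 0.165). Daxx and Atrx, the pair that deposits H3.3 at telomeres and heterochromatin, fell by 0.15 ± 0.03 and 0.24 ± 0.05.

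Of 12 genes for H2A.Z exchange, 4 were higher and 6 lower (median -0.09), where 30.6% and 32.9% of all genes were. Yeats4, a subunit shared by the SRCAP and TIP60 complexes, fell from 93.2 ± 2.07 to 38.2 ± 1.83 CPM (SD, n = 4 each), or by 1.29 ± 0.04 (SE) on the log2 scale. Vps72, which binds H2A.Z within SRCAP, fell by 0.51 ± 0.03, and Ino80 by 0.25 ± 0.04. Anp32e, a chaperone that removes H2A.Z, rose by 0.43 ± 0.05, and Ep400, the ATPase of the TIP60 complex, by 0.34 ± 0.06.

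Of 14 genes of CENP-A loading and the inner centromere, 2 were higher and 7 lower (median -0.18); without deleted replicates 2 and 3 these were 1 and 4, and without intact replicate 2 or deleted replicate 2 alone 1 was higher. Hjurp, the chaperone of CENP-A, fell from 41.0 ± 1.56 to 33.4 ± 4.18 CPM (adjusted p = 0.00685), and Mis18a, which prepares centromeres for loading, by 0.23 ± 0.06 (SE). Cenpn, whose protein binds CENP-A nucleosomes, fell by 0.58 ± 0.08, while the kinetochore gene Cenpt rose by 0.53 ± 0.04. Like Cenpa itself, 7 of these 14 genes were thus lower, where 32.9% of all genes were.

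Of 13 genes of H2AX signalling, 3 were higher and 4 lower (median 0.04), where 30.6% and 32.9% of all genes were. The higher count was 5 without intact replicate 2 or deleted replicate 3 and 7 with upper-quartile factors or library totals only. Prkdc and Atm, kinases that phosphorylate H2A.X, rose by 0.84 ± 0.08 and 0.33 ± 0.05 (SE), and Rad50, of the complex that senses breaks, by 0.33 ± 0.04. Nbn, of the same complex as Rad50, fell by 0.38 ± 0.06, and Ppp4c, a phosphatase that acts on H2A.X, by 0.17 ± 0.04. Of 11 general histone chaperone genes, 3 were higher and 7 lower (median -0.16; 4 lower with upper-quartile factors or library totals only), with Chaf1b at -0.51 ± 0.06 and Ssrp1 at -0.34 ± 0.04 among the lower and Npm1 at 0.34 ± 0.06 among the higher. Of the factor genes named here, Cabin1, Ubn1, Hira, Atrx, Yeats4, Vps72, Ep400, Hjurp, Cenpn, Cenpt and Prkdc overlap other annotated genes, so their reads are uncertain without strand. Phosphorylation and the amounts of the proteins were not measured.

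**Figure D5:**
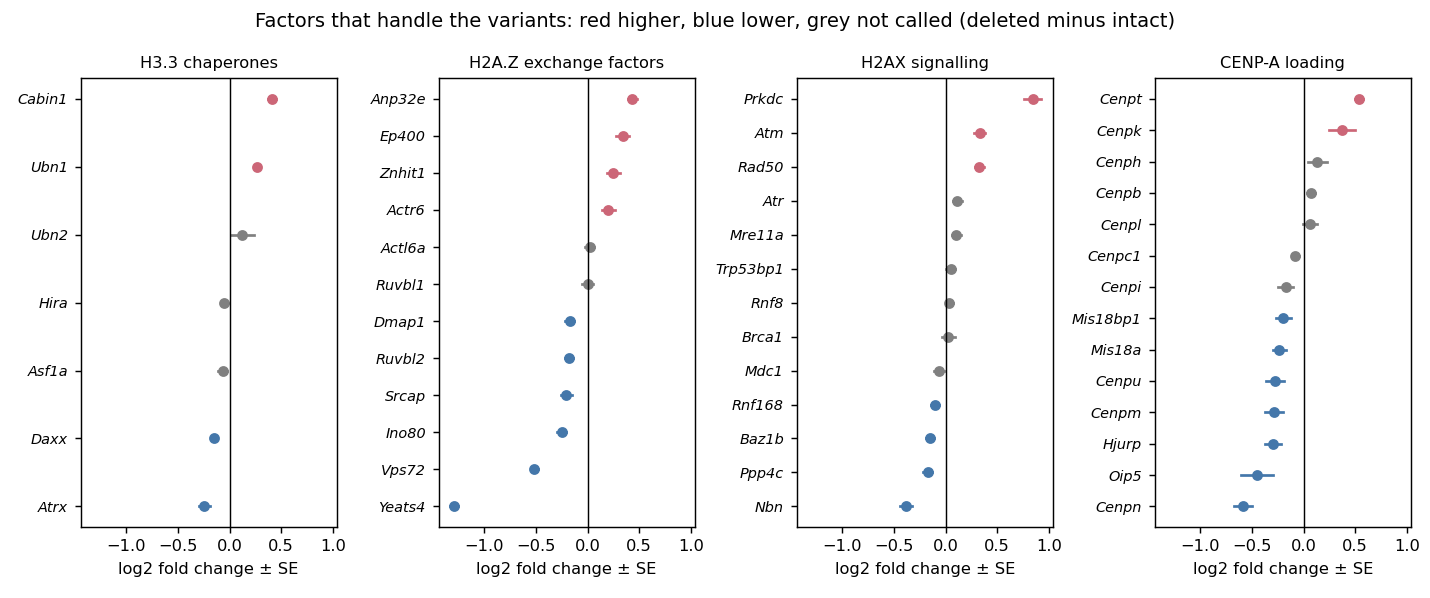
Log2 fold change ± SE, Taf8-deleted minus Taf8-intact, of the genes in 4 lists of factors that deposit, exchange or signal through the variants; red genes were called higher, blue lower, grey neither. Each list holds both directions, from Yeats4 at -1.29 to Prkdc at 0.84.

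Markers of cell state and cell type changed as well, in a comparison where 30.6% of all genes were called higher and 32.9% lower. Of 15 S phase genes, 8 were lower (6 to 9 without each library in turn) and 1 higher (Slbp, whose call was lost without intact replicate 3 or 4 and without deleted replicate 2, 3 or 4). Of 14 G2 and M phase genes, 6 were lower and 1 higher, but 3 were lower without intact replicate 2, with upper-quartile factors and with library totals only, and 8 without intact replicate 3, and none was higher without intact or deleted replicate 4. Of 8 neuronal markers, 7 were lower and none higher (median -0.45). Of 8 radial glia markers, 5 were higher and 2 lower, with summed levels of 2070 to 2365 CPM in intact and 2937 to 3149 CPM in deleted cortex. All 5 endothelial and all 4 pericyte markers were higher, with summed levels of 120 to 128 against 141 to 176 CPM and of 73.8 to 75.1 against 89.9 to 107 CPM. Their part in the changes of the variant genes was not tested.

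Markers of neighbouring tissue differed most between single libraries. Of 6 meningeal markers, 4 were higher and none lower, but only 1 was higher without intact replicate 1, 2 or 3, without deleted replicate 2 or 3, with limma voom and with a replicate block. They were at summed levels of 15.9 to 36.9 CPM in intact and 18.7 to 146 CPM in deleted cortex, with 1 marker at 0 in intact replicate 2. The 4 choroid plexus markers were not called and ranged from 2.19 to 270 CPM in intact and from 1.05 to 857 CPM in deleted cortex. The falls of H3f3a, Macroh2a2, H1f0 and Cenpa and the rises of H3f3b and H2az1 were called without deleted replicates 2 and 3 as well. Of 5 microglial markers 1 was higher and 1 lower, and of 4 erythroid markers 1 was higher; without deleted replicate 4, 2 microglial and 3 erythroid markers were higher, and without intact replicate 3, 2 microglial markers were lower and no erythroid marker was higher. Apart from that single meningeal marker, no marker of these lists was at 0.

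Gene by gene, the libraries that stood low within a group recurred. Intact replicate 3 was the lowest intact library for H3f3a, H2az2, H2ax, Macroh2a1, Macroh2a2, H1f0, H1f10 and Cenpa, and the highest for H3f3b. Deleted replicate 4 was the lowest deleted library for H2az2, H2ax and H1f10 and the highest for H1f0 and H3f3b. The summed level of the S phase genes was likewise lowest in intact replicate 3 among the intact libraries, at 1617 CPM against 1866 to 1960 CPM. So were those of the G2 and M phase genes, at 2124 CPM, and the radial glia markers, at 2070 CPM. The neuronal markers were highest in that library, at 7599 CPM. Their part in the levels of the variant genes was not tested.

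The profile over the 8 libraries was compared with that of other protein-coding genes whose mean log2 CPM was 2 or more, as a description, since all libraries and the group difference are shared. Among the genes whose log2 CPM was most like that of H3f3b, of 11404 compared, were Ahi1 and Nrbp2, with Pearson's r of 0.996 and 0.995. That of H1f0 was most like those of Wbp11, Hdgf and Zfp438 among 11403 genes, with r of 0.991, 0.991 and 0.990. Between the groups, Ahi1 and Nrbp2 were higher in deleted cortex by 0.38 and 0.83 and the other 3 lower, at -0.27, -0.19 and -0.48 on the log2 scale.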

How the data were processed

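The authors deposited raw counts for each gene in 8 libraries of 100-base read pairs, 1 per embryo, made with bcl2fastq 1.8.4, Subread 1.5.0, featureCounts and build mm10, per the submitters' processing notes, which give neither roles nor the annotation. Depth was 39590959 to 44788200 counts, of which identifiers without a symbol held 0.49% to 1.64% and stayed in. No libraries of a group agreed within sampling noise.

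Symbols and positions came from RefSeq for GRCm38.p6, transcripts from GENCODE on GRCm38, promoters from RefSeq (9 of 10 genes matched). edgeR 4.0.16 in R 4.3.3 (filterByExpr, TMM factors 0.971 to 1.028, robust quasi-likelihood test, no covariates, all 8 libraries) gave log2 fold changes, deleted minus intact, with p-values adjusted over 16074 genes by Benjamini-Hochberg at 0.05. SE came from the fold change and F. CPM use TMM-scaled library sizes; RPKM divide them by the deposited length. Tested on simulated data, with 16074 genes and the same 4 against 4 comparison, the fit recovered 67 of 67 genes set to change by 0.5 in log2.

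The members and gene lists were chosen with earlier results of these data known. Named are the 10 genes, Taf8, up to 4 genes of each list with the smallest p and 2 of the opposite direction, the 3 genes nearest in profile to the largest rise and fall, and genes that overlap or copy a member; Hira was added for its role after its values were seen, and a gene that the rule takes is not reported here. Count ratios of 4 pairs were tested by exact permutation, two-sided, adjusted over the pairs. Alternatives were other scalings, filters, DESeq2 1.42.0, limma 3.58.1 voom, a replicate block and left-out libraries. List genes H2afb1 and Hbb-bt could not be matched.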

Additional observations from a re-analysis of the deposited data

Results flagged for a closer look

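Over 38 groups of 4 libraries examined, 4 held a library far from the other 3 by Dixon's criterion, where chance gives about 1 in 20. H3f3a in deleted replicate 3 was at 37.5 CPM, below the other deleted libraries, and with it the summed H3.3 mRNA at 40.3 CPM. Macroh2a2 in intact replicate 3 was at 227 CPM, below the other intact libraries, and with it the summed macroH2A mRNA at 572 CPM. In both genes deleted and intact libraries stayed apart: deleted replicate 3 lies farther from the intact group, and intact replicate 3 nearer to the deleted group.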

How the results depend on the processing

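The calls of H3f3a, H3f3b, H2az1, Macroh2a2, H1f0 and Cenpa kept their direction and stayed past the threshold under all 11 alternatives and without each of the 8 libraries; the least firm was H3f3a, with a largest adjusted p = 0.0499. The H2az2 log2 fold change lost its call with median-ratio factors (-0.097), upper-quartile factors (-0.0495), library totals only (-0.0452), a CPM above 1 in 4 libraries (-0.0798) and without identifiers that lack a symbol (-0.0933), and ranged from -0.1205 to -0.0681 without each library in turn. Macroh2a1, not called in any, was at 0.0254 with upper-quartile factors and 0.0296 with library totals only. H2ax ranged from 0.19 to 0.32 without each library and was at 0.16 without deleted replicates 2 and 3, where H1f10 was at 0.22. The log2 difference of the H1f10 and H1f0 ratio was 0.74 to 0.93 without each library. The log2 ratios of the sums were -0.0558 for H3.3, -0.0246 for H2A.Z and -0.0996 for macroH2A with library totals only, against -0.12, -0.09 and -0.16 under TMM. Causes of these differences were not tested. Between 8885 and 10498 genes were called over the alternatives; other scalings moved the median of all genes to at most 0.06, and with library totals only 5894 genes were higher and 4416 lower.

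With the replicate number as a replicate block, H2az2 was at -0.11 (adjusted p = 0.0704) and H2ax at 0.26 (adjusted p = 0.0521), and no other call of the 10 genes changed. The numbers do not pair the embryos: deviations of same-numbered libraries from their group means correlated at -0.23, 0.01, -5e-04 and -0.46. Depth limits H3f3b and H2az1, with 51 to 317 counts per library, most. In the simulated 4 against 4 comparison of 16074 genes, 19 of 67 genes changed by 0.25 in log2 were recovered. Few genes were changed in that simulation and all had the same dispersion, whereas 63.5% of genes were called in these data. This recovery therefore does not carry over to changes the size of those of H3f3a and H2az2.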
